A study of Mus musculus with 6 samples.

Results

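The genes described are those of the mitochondrial ribosome, chosen as every gene whose symbol is Mrpl or Mrps followed by a number and that has a probe set of its own in the platform annotation. There were 75 such genes of 30744 named on the array, 47 of the large subunit (Mrpl) and 28 of the small subunit (Mrps), each with 1 probe set of its own. Pseudogenes were left out. Their expression was measured in 6 RNA samples of LSK cells, a bone marrow fraction sorted as negative for lineage antigens and positive for c-Kit and Sca1, which holds the blood stem cells and early multipotent progenitors. The 3 knockout samples came from miR-21flox/flox:Mx1-Cre+ mice and the 3 control samples from miR-21flox/flox:Mx1-Cre- littermates. Both groups therefore carried floxed miR-21 alleles, and both were injected with pIpC, at 250 µg per injection and 7 injections given every other day from an age of 4 to 6 weeks. Cells were taken 4 weeks after pIpC. This double-stranded RNA analogue raises interferon and so switches on the Mx1 promoter that drives Cre. The promoter also responds in other tissues, and only knockout mice carried Cre, so effects of Cre and of miR-21 loss cannot be told apart. Each sample is titled as a biological replicate, but the number of mice behind it is not stated in those titles. The p-values therefore cover the spread between arrays alone, which may be partly technical.

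The microRNA that the floxed allele removes is miR-21, a regulator of many mRNAs. Its mature form is shown because it defines the genotype, written 5′ to 3′ with the seed, bases 2 to 8, in capitals (RefSeq, GRCm38.p6, chr11:86584120-86584141, minus strand).
mmu-miR-21a-5p: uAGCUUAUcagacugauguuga
Only 1 probe set was annotated to this locus, jointly with the host gene Vmp1, and it had log2 values of 5.65, 5.64 and 5.76 in knockout arrays, against 5.65, 5.60 and 5.63 in control arrays. It spans the host gene and so does not check the deletion.

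Mitochondria keep a ribosome of their own, which translates the few mRNAs encoded by mitochondrial DNA, all for subunits of the respiratory chain and ATP synthase. Its rRNAs are transcribed inside the organelle, but every one of its proteins is encoded in the nucleus, made in the cytoplasm and imported. Some of these proteins have counterparts in bacterial ribosomes and others were added in the mitochondrial lineage. Blood stem cells are known to keep mitochondrial activity low while quiescent and to raise it as they divide and differentiate.

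Values are on the log2 scale, and a change is the knockout mean minus the control mean. A gene is called higher or lower where its adjusted p in limma was under 0.05 over the 19086 genes that were bright enough to be tested. Array medians over all probe sets ran from 1.90 to 1.95. Arrays correlated at 0.995 to 0.997 within a group and at 0.987 to 0.991 between groups. The 2 groups differed widely: 19.1% of all tested genes were called higher in the knockout and 12% lower (3648 and 2294 genes). That split depends on scaling, since centring each array on the median of the tested genes, an alternative added after seeing the data, gave 2760 higher and 2737 lower. Many markers of cell types and of cell division differed between the groups. Myeloid progenitor genes such as Mpo and Elane were higher for 12 of 13 and lower for the other, Csf3r (array means 6.86 to 6.90 in knockout and 5.62 to 5.66 in control). All 13 neutrophil genes were higher, with array means of 4.46 to 4.58 in knockout and 3.35 to 3.50 in control. Mitotic genes were higher for 16 of 19, at 6.34 to 6.47 in knockout and 5.90 to 6.02 in control. Of 8 tested LSK and stem cell markers, 6 were lower and 1 higher (6.02 to 6.08 in knockout, 6.30 to 6.37 in control). Kit was among the lower ones, and the Sca1 gene Ly6a was not analysed here. Of 8 tested mature lineage markers, 2 were higher and 1, Itgam, was lower, and Cd3g, Ms4a1 and Ncr1 were too dim to test. Ly6g, 1 of the 2 higher, is also among the 13 neutrophil genes. Array means over the 11 with a probe set, dim ones included, were 2.81 to 2.84 in knockout and 2.75 to 2.80 in control. The part of other cells in the results below was not tested.

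Mitochondrial ribosomal protein genes were, for the most part, higher in miR-21 knockout LSK cells. All 75 passed the brightness filter, 46 were called higher (61.3%, beside 19.1% of all tested genes) and none was called lower (beside 12%), with 29 not called. Changes were small. The median was 0.27 (1.20-fold) with quartiles at 0.18 and 0.38, where the median over all tested genes was 0.07 with quartiles at -0.07 and 0.18. In bulk samples, a different mix of cells and a different amount of each RNA per cell cannot be told apart. Of the 75 changes, 73 lay above 0, where 12433 of all 19086 tested genes did. The exceptions were Mrpl17 and Mrps30. For 54 members all 3 knockout arrays lay above all 3 control arrays, a pattern that 30.9% of all tested genes showed, and for none did all knockout arrays lie below, a pattern of 17.1%. The count of 46 rests in part on single arrays: it was 28 without knockout replicate 3, 31 without knockout replicate 1 and 31 without control replicate 2, when 12.2%, 13.8% and 13.4% of all genes were called higher. It was 40 with each array centred on its own median or on that of the tested genes, and no member was called lower under either centring. Standard errors of the changes ran from 0.05 to 0.13.

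**Figure D1:**
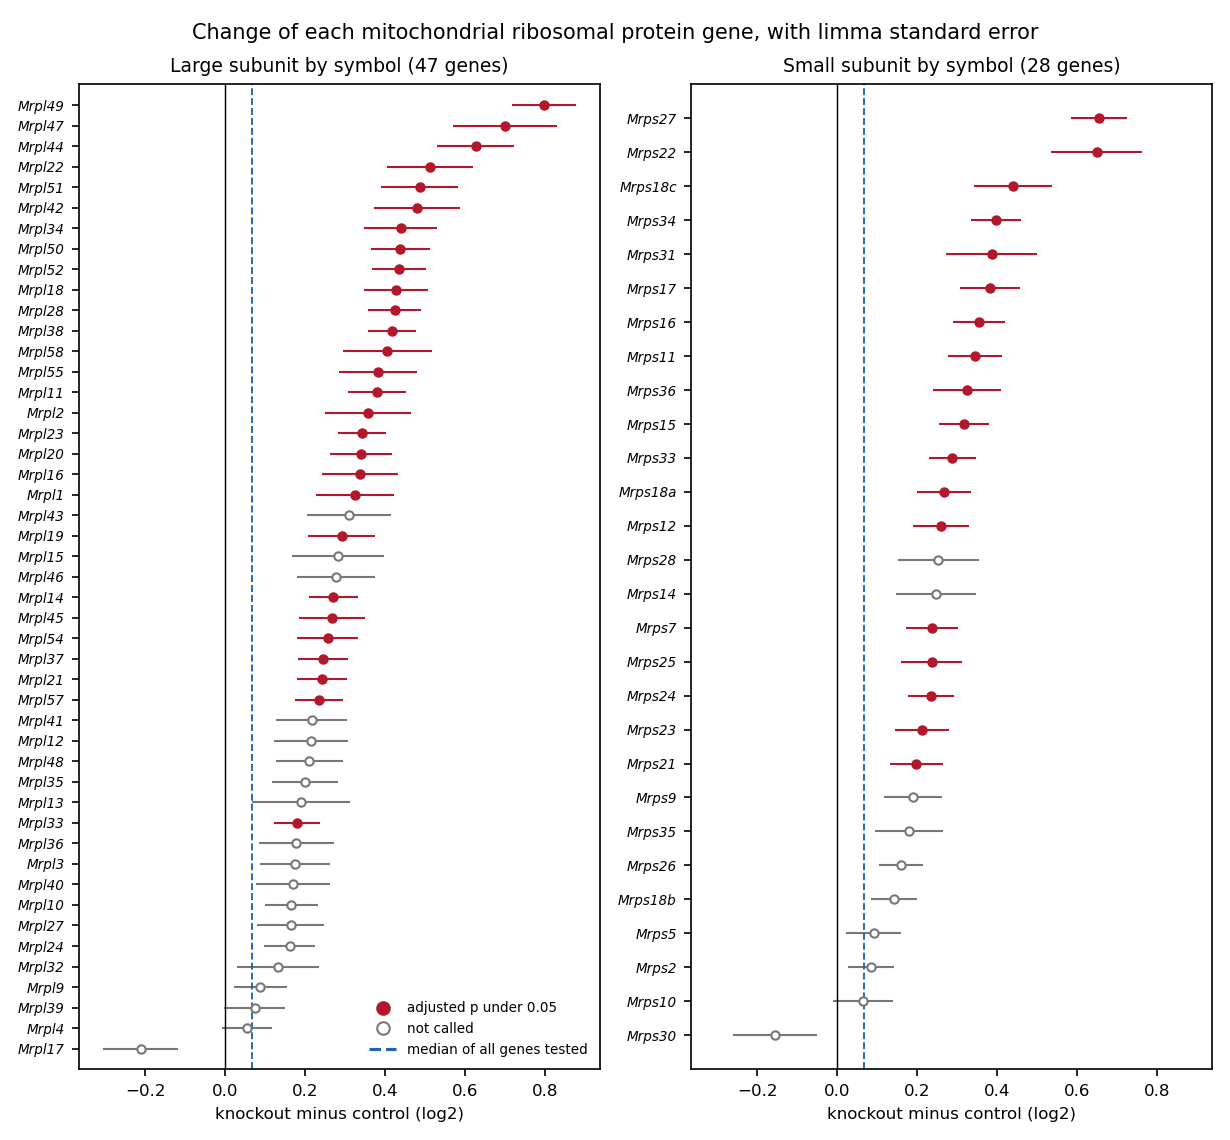
Change of each of the 75 mitochondrial ribosomal protein genes (knockout minus control, log2), large subunit on the left and small subunit on the right, sorted by size. Points are changes with the limma standard error, filled where the adjusted p was under 0.05, and the dashed line is the median of all tested genes at 0.07. Only Mrpl17 and Mrps30 lie below 0.

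Genes of the large subunit, which holds the peptidyl transferase centre, and of the small subunit, which decodes the mRNA, were called higher in similar shares. Of 47 large subunit genes 28 were called higher (59.6%, beside 19.1% of all tested genes) and 19 were not. Of 28 small subunit genes 18 were called higher (64.3%) and 10 were not. The median change was 0.28 (1.21-fold) for the large subunit and 0.25 (1.19-fold) for the small subunit. Their difference was 0.03, and it turned to -0.01 without knockout replicate 3 and to -0.01 without control replicate 3. The gap between the large and small subunit median levels varied between arrays of a group with an SD of 0.08. That is a spread of levels on single arrays and not the error of the difference of 0.03. The median level of the large subunit genes was 5.60, 5.51 and 5.68 on the knockout arrays, against 5.46, 5.14 and 5.29 on the control arrays. For the small subunit the medians were 5.30, 5.24 and 5.31 in knockout and 5.01, 4.90 and 4.99 in control. In both subunits every knockout median lay above every control median. All tested genes together had medians of 4.28, 4.26 and 4.28 in knockout and 4.26, 4.23 and 4.23 in control. Without knockout replicate 3 the calls were 17 large and 11 small subunit genes, when 12.2% of all tested genes were called higher. The small subunit count was also 11 without knockout replicate 1 and without control replicate 2, beside 13.8% and 13.4% of all tested genes.

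Symbols do not follow the structure in every case. Mrps18a and Mrps30 sit in the large subunit of the mammalian mitoribosome, and Mrps36 is now known as a subunit of the 2-oxoglutarate dehydrogenase complex. Grouped by place, 29 of 49 large subunit genes were called higher with a median of 0.27, and 16 of 25 small subunit genes with a median of 0.25. These shares of 59.2% and 64% stand beside 19.1% of all tested genes. All 25 genes placed in the small subunit had changes above 0, as had 12433 of all 19086 tested genes. Proteins classed as conserved from bacterial ribosomes and those classed as specific to the mitochondrial ribosome gave similar counts. The specific class includes Mrps18a and Mrps18b, although both are paralogues of a bacterial protein. In the large subunit 16 of 29 conserved genes were called higher (median 0.27) and 13 of 20 specific ones (median 0.27). In the small subunit the counts were 9 of 15 conserved genes (median 0.25) and 7 of 10 specific ones (median 0.26). These medians were not tested against each other.

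The highest change of all members was that of Mrpl49, a large subunit protein with no bacterial counterpart, in an interval of chromosome 19 (chr19:6053630-6057755 in GRCm38.p6, as are all coordinates given here). Its promoter is shown because its gene stands first in that order and shares these bases with Fau, whose start lies 192 bases away on the other strand. They are the 191 bases between the starts, chr19:6057756-6057946 on the minus strand from RefSeq, 5′ to 3′ towards Mrpl49. Capitals in this and the later promoter sequences mark matches to motifs described further on, and here there were none.
Mrpl49: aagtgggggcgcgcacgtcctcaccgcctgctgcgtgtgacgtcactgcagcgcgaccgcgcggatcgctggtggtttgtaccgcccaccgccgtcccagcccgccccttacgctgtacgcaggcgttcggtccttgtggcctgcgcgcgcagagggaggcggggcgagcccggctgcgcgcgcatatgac
Mrpl49 had values of 6.67, 6.51 and 6.80 on the knockout arrays, against 5.91, 5.79 and 5.89 on the control arrays. The groups did not overlap, and the gap between them was wider than the spread within either. The change was 0.80 ± 0.08 (SE, n = 3 each, 1.74-fold, adjusted p = 0.000155).

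The next large subunit genes were Mrpl47 and Mrpl22, counterparts of bacterial proteins at the tunnel through which the new peptide leaves, with Mrpl44, a protein with the fold of RNase III, between them. Mrpl47 (chr3:32727497-32736755) had 5.36, 4.96 and 5.40 in knockout and 4.67, 4.32 and 4.63 in control. Its change was 0.70 ± 0.13 (SE, 1.62-fold, adjusted p = 0.00416). The groups were apart, and replicate 2 was the lowest array in each. Mrpl44 (chr1:79776018-79781445) had 4.48, 4.34 and 4.66 in knockout and 3.91, 3.72 and 3.97 in control, a change of 0.63 ± 0.10 (SE, 1.54-fold, adjusted p = 0.00167). For Mrpl22 (chr11:58170043-58179580) the values were 6.55, 6.33 and 6.61 in knockout and 6.17, 5.78 and 6.01 in control. That change was 0.51 ± 0.11 (SE, 1.42-fold, adjusted p = 0.00747), with the lowest knockout array close above the highest control array. Mrpl51 (chr6:125192200-125194392) and Mrpl42 (chr10:95480805-95501949), both without a bacterial counterpart, followed. Mrpl51 rose by 0.49 ± 0.10 (SE, adjusted p = 0.00546), at 4.94 ± 0.18 in knockout and 4.46 ± 0.10 in control (SD, n = 3 each). Mrpl42 rose by 0.48 ± 0.11 (SE, adjusted p = 0.00964), at 7.90 ± 0.16 in knockout and 7.42 ± 0.19 in control. All 6 of these genes kept their call when any 1 array was left out. The 20 other large subunit genes called higher had changes of 0.18 to 0.44, and the 11 others not called had 0.16 to 0.31.

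The low end of the large subunit held Mrpl17, the counterpart of bacterial L17 near the tunnel exit. Its promoter is shown as the contrast to Mrpl49, as the 250 bases upstream of its start (chr7:105811088-105811337, minus strand).
Mrpl17: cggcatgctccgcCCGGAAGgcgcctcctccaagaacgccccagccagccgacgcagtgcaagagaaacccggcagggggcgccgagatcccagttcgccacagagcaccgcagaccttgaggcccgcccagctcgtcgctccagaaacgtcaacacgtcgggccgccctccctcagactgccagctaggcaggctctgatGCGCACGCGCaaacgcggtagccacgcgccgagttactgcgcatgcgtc
Mrpl17 (chr7:105803782-105811087) had 4.82, 4.61 and 4.84 in knockout and 5.12, 4.80 and 4.99 in control. Replicate 2 was again the lowest array in each group, and the groups overlapped. The change of -0.21 ± 0.09 (SE, adjusted p = 0.117) was not called, though it became -0.29 with an adjusted p of 0.0443 without control replicate 2. The other members at this end were Mrpl4 at 0.05 (adjusted p = 0.527), Mrpl39 at 0.07 (adjusted p = 0.489), Mrpl9 at 0.09 (adjusted p = 0.34), Mrpl32 at 0.13 (adjusted p = 0.354) and Mrpl24 at 0.16 (adjusted p = 0.0839). Mrpl32 is known as a substrate that the m-AAA protease must cut before it can be built into the ribosome. In Mrpl24 alone of these the groups did not overlap, at 7.44, 7.40 and 7.45 in knockout and 7.37, 7.19 and 7.25 in control, and it was called without control replicate 1 (0.21, adjusted p = 0.0438).

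Large subunit genes with other known activities fell between these ends. Mrpl12, a protein of the ribosomal stalk that in human cells also binds the mitochondrial RNA polymerase, had 5.25, 5.03 and 5.17 in knockout and 5.07, 4.75 and 4.98 in control. Its groups overlapped and its change of 0.21 ± 0.09 (SE, adjusted p = 0.108) was not called. Mrpl12 was called higher with array weights (0.27, adjusted p = 0.0386) and with the replicate numbers as a block (adjusted p = 0.0198). Mrpl58, listed on the platform as Ict1, is a peptidyl-tRNA hydrolase that rescues stalled ribosomes. It had 5.81, 5.70 and 5.80 in knockout and 5.63, 5.14 and 5.32 in control, a change of 0.41 ± 0.11 (SE, adjusted p = 0.0226). Leaving out knockout replicate 1, knockout replicate 3, control replicate 2 or control replicate 3 ended the call, with changes of 0.39, 0.39, 0.29 and 0.38 and adjusted p of 0.0611, 0.0652, 0.0583 and 0.0709. Mrpl57, which has no bacterial counterpart, had 5.64, 5.71 and 5.68 in knockout and 5.46, 5.49 and 5.38 in control. Its change was 0.23 ± 0.06 (SE, adjusted p = 0.0168), and the adjusted p was 0.0541 without knockout replicate 3.

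**Figure D2:**
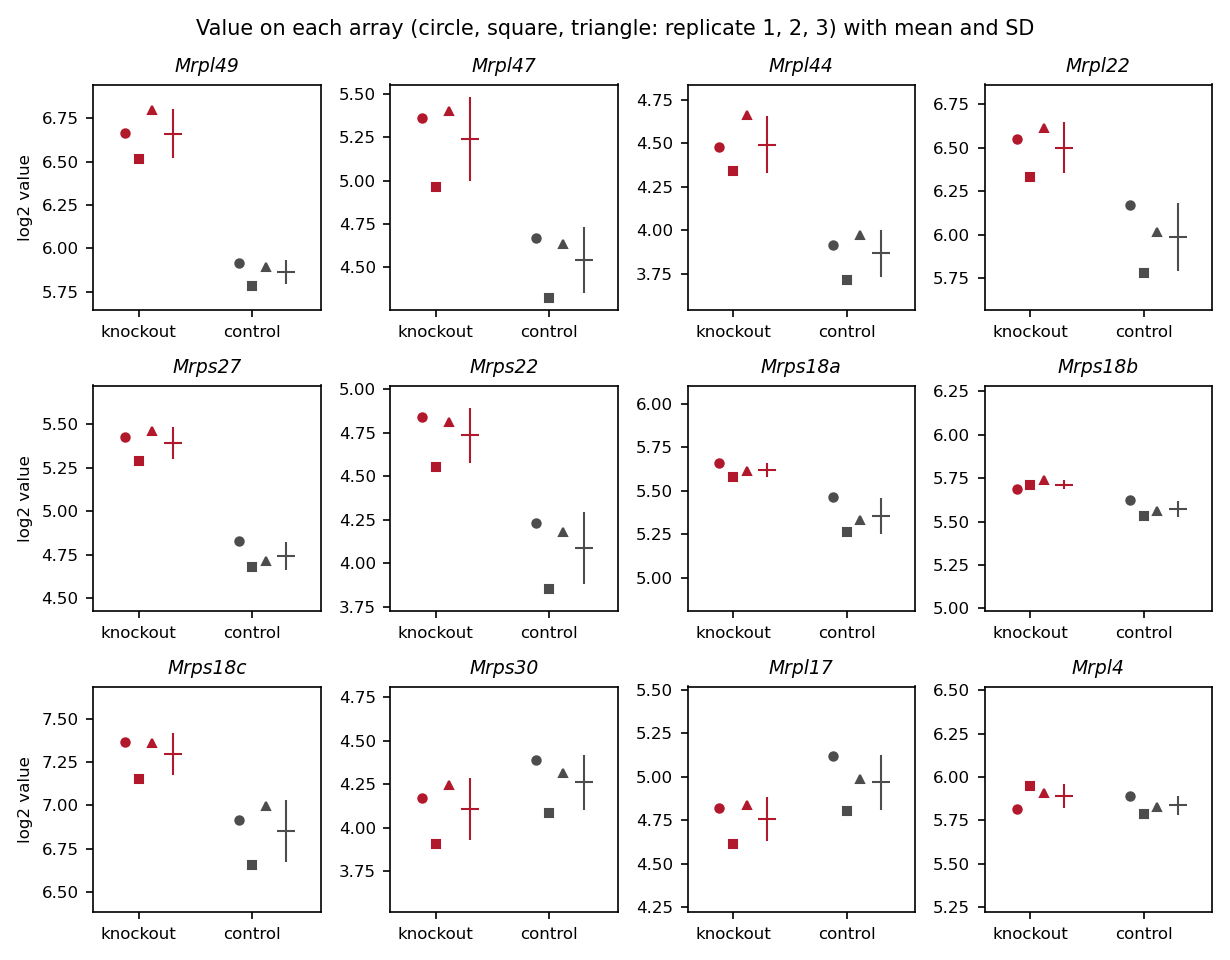
Log2 value of 12 named members on each array, knockout on the left and control on the right of each panel, with circle, square and triangle for replicates 1, 2 and 3 and the mean and SD beside them. Panels share 1 span of the vertical axis but not its level. Mrpl49 and Mrps27 show wide gaps between the groups, and Mrpl17 and Mrps30 lie lower in knockout with overlap.

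In the small subunit, Mrps27 and Mrps22 had the highest changes. Mrps27 is a protein of pentatricopeptide repeats, a fold that binds RNA, and Mrps22 is a gene in which human mutations cause mitochondrial disease. Their promoters are shown for that place in the order. The 88 bases of Mrps27 (chr13:99344679-99344766, plus strand) reach back to the gene Ptcd2 on the other strand, and those of Mrps22 are the 250 bases upstream of its start (chr9:98601680-98601929, minus strand).
Mrps27: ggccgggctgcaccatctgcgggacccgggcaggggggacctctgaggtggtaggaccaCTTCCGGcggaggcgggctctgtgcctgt
Mrps22: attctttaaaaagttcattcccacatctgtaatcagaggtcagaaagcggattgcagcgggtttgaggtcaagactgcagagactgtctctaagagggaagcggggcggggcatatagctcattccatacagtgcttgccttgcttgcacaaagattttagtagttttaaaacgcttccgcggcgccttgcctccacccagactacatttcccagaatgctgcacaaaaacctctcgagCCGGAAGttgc
Mrps27 (chr13:99344767-99415562) had 5.43, 5.29 and 5.47 in knockout and 4.83, 4.68 and 4.71 in control. Every knockout array lay above every control array, and the change was 0.65 ± 0.07 (SE, 1.57-fold, adjusted p = 0.000236). Mrps22 (chr9:98588730-98601679) had 4.84, 4.55 and 4.81 in knockout and 4.23, 3.85 and 4.18 in control. Its change of 0.65 ± 0.11 (SE, 1.57-fold, adjusted p = 0.00307) also came without overlap.

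Mrps18c, Mrps34 and Mrps31 came next. Mrps18c (chr5:100798759-100804467) had 7.37, 7.15 and 7.36 in knockout and 6.91, 6.65 and 7.00 in control, a change of 0.44 ± 0.10 (SE, adjusted p = 0.00976). Mrps34 (chr17:24895120-24896289), which is needed for a stable small subunit in mice, had 5.60, 5.55 and 5.62 in knockout and 5.28, 5.14 and 5.16 in control. That change was 0.40 ± 0.06 (SE, adjusted p = 0.00196). Mrps31 (chr8:22410449-22429669) had 4.42, 4.40 and 4.62 in knockout and 4.35, 3.90 and 4.03 in control. Control replicate 1 almost reached the knockout arrays, and the change was 0.39 ± 0.11 (SE, adjusted p = 0.0302). Its call ended when knockout replicate 1, knockout replicate 3, control replicate 2 or control replicate 3 was left out, with changes of 0.42, 0.31, 0.29 and 0.35 and adjusted p of 0.0501, 0.1, 0.0886 and 0.0917.

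Mrps30, a protein of the large subunit despite its symbol, was the only Mrps gene with a change below 0. Its promoter is shown beside that of Mrpl17, as the 250 bases upstream of its start (chr13:118387253-118387502, minus strand).
Mrps30: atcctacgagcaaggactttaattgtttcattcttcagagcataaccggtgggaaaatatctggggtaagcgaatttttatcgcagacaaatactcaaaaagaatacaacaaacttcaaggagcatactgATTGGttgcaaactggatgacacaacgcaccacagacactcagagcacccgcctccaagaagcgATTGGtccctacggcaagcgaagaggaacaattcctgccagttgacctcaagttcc
Mrps30 (chr13:118380110-118387252) had 4.17, 3.90 and 4.24 in knockout and 4.39, 4.09 and 4.31 in control. The groups overlapped, and the change of -0.16 ± 0.11 (SE, adjusted p = 0.286) was not called. Next lowest were Mrps10 at 0.06 (adjusted p = 0.534), Mrps2 at 0.08 (adjusted p = 0.282) and Mrps5 at 0.09 (adjusted p = 0.334), all of them core proteins with bacterial counterparts. None of these 3 was called under any alternative run. The 9 small subunit genes called higher that are not named here had changes of 0.20 to 0.38, and the 5 others not called had 0.16 to 0.25.

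The 3 paralogues of bacterial S18 differ in place and in value. Mrps18a, which sits in the large subunit, had 5.66, 5.58 and 5.61 in knockout and 5.46, 5.26 and 5.33 in control. Its change was 0.27 ± 0.07 (SE, 1.20-fold, adjusted p = 0.0173), with an adjusted p of 0.0618 without knockout replicate 1 and 0.0594 without control replicate 2. Mrps18b, in the small subunit, had 5.69, 5.71 and 5.74 in knockout and 5.62, 5.53 and 5.56 in control. These groups did not overlap, but the change of 0.14 ± 0.06 (SE, 1.10-fold, adjusted p = 0.0874) was not called. A dimmer probe set shared by Mrps18b and Gm16279 had 2.35, 2.51 and 2.41 in knockout and 2.48, 2.27 and 2.29 in control. There the groups overlapped, with a difference of 0.08 (limma adjusted p over all bright probe sets 0.494). Mrps18c, described above, had the highest change of the 3. The difference between their changes was not tested. Mrps36 (chr13:100735940-100744659) had 4.44, 4.23 and 4.53 in knockout and 4.15, 3.99 and 4.08 in control, a change of 0.33 ± 0.09 (SE, adjusted p = 0.0192). The adjusted p of Mrps36 with the same 4 arrays left out, in the same order as for Mrps31, was 0.0586, 0.0691, 0.061 and 0.0502. Its pseudogenes have probe sets of their own, and so have those of Mrpl23 and Mrpl48, so the values of these 3 genes are uncertain where probes match both copies.

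Within each group the same arrays were low or high for most members. Knockout replicate 2 was the lowest of its group for 55 of 75 members (73.3%, where it was lowest for 39.4% of all tested genes), and control replicate 2 for 56 (74.7%, against 39% of all genes). Control replicate 1 was the highest of its group for 56 members (74.7%, against 40.1%). The median deviation of the members from the mean of their own group was 0.02, -0.08 and 0.04 on the knockout arrays and 0.09, -0.08 and 0.01 on the control arrays. For all tested genes these deviations lay between -0.01 and 0.01. The highest control array stayed below the lowest knockout array, with medians over the members of 5.46 on the lowest knockout array and 5.23 on the highest control array.

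**Figure D3:**
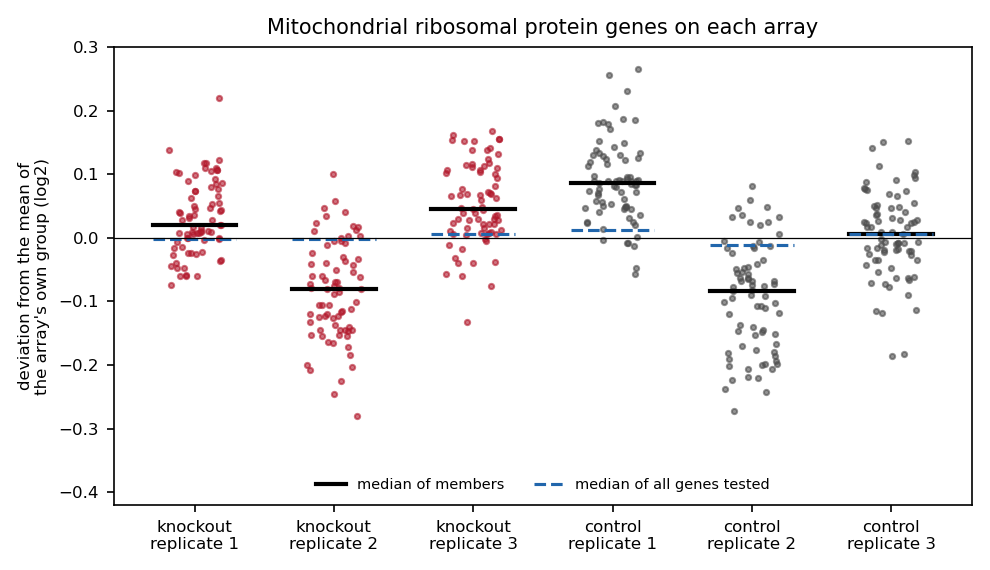
Deviation of each of the 75 genes from the mean of its own group (log2) on each array, knockout arrays on the left and control arrays on the right. Black lines are medians of the members and dashed lines medians of all tested genes. Replicate 2 lies low in both groups (-0.08 each) and control replicate 1 lies high (0.09).

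Mitoribosomal proteins with other symbols gave a mixed picture. Of 4 tested, Chchd1 and Gadd45gip1 were called higher (50%, beside 19.1% of all tested genes) and Dap3 and Ptcd3 were not. Chchd1, a small subunit protein, had 6.76, 6.69 and 6.78 in knockout and 6.30, 6.09 and 6.23 in control, a change of 0.54 ± 0.07 (SE, 1.45-fold, adjusted p = 0.000618). Gadd45gip1, of the large subunit, rose by 0.29 ± 0.08 (SE, adjusted p = 0.0276). The call ended on leaving out knockout replicate 1, knockout replicate 3, control replicate 1 or control replicate 3. There the adjusted p was 0.0766, 0.0934, 0.0843 and 0.0798. It also ended with arrays centred on the median of the tested genes (0.25, adjusted p = 0.0518). Dap3, the GTP-binding protein of the small subunit, was at 6.12 ± 0.06 in knockout and 6.03 ± 0.10 in control (SD, n = 3 each), a difference of 0.08 (adjusted p = 0.381). Ptcd3 differed by 0.02 (adjusted p = 0.828). The rRNA of the small subunit, mt-Rnr1, was added after its values were seen. It had 10.17, 10.11 and 10.24 in knockout and 9.86, 10.09 and 10.15 in control. The groups overlapped, and its change of 0.14 ± 0.08 (SE, adjusted p = 0.214) was not called.

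With all 6 arrays, most factors that assemble the mitoribosome were called higher too. Of 24 such genes, 14 were called higher (58.3%, beside 19.1% of all tested genes) and 1 lower (4.2%, beside 12%). The other 9 were not called, and the median was 0.21. The higher calls numbered 6 without knockout replicate 3, 9 without control replicate 1, and 8 without knockout replicate 1, control replicate 2 or control replicate 3. Of all tested genes 12.2%, 15.8%, 13.8%, 13.4% and 16.3% were then called higher, in that order. Whichever array was left out, at most 10 of the 24 were called higher. Ngrn, which in human cells is needed for a stable large subunit rRNA, had 5.56, 5.61 and 5.68 in knockout and 4.75, 4.87 and 4.93 in control, a change of 0.77 ± 0.07 (SE, 1.70-fold, adjusted p = 6.96e-05). The inner membrane protein Mpv17l2 rose by 0.46 (adjusted p = 0.000614) and the small subunit factor Rbfa by 0.38 (adjusted p = 0.00145), or by 0.23 with its probe sets averaged. The GTPase Gtpbp10, which in human cells acts late on the large subunit, had 4.12, 4.15 and 4.22 in knockout and 4.43, 4.34 and 4.34 in control. It was the gene called lower, at -0.21 ± 0.06 (SE, adjusted p = 0.0271), and leaving out knockout replicate 1, knockout replicate 2, control replicate 1 or control replicate 2 ended the call, with adjusted p of 0.0988, 0.0627, 0.0777 and 0.0541.

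No gene was called lower among translation factors, tRNA synthetases and genes of mitochondrial DNA expression. Of 12 translation factors 4 were called higher (33.3%, beside 19.1% of all tested genes), with a median of 0.14. Among them were the elongation factor Tufm at 0.34 (adjusted p = 0.00253), its exchange factor Tsfm at 0.43 (adjusted p = 0.00117) and the initiation factor Mtif3 at 0.45 (adjusted p = 0.00226). The recycling factor Mrrf was at -0.08 (adjusted p = 0.532), and at 0.11 with its probe sets averaged. Of 19 tested tRNA synthetases and amidotransferase subunits 6 were called higher (31.6%), with a median of 0.13. The highest was Mars2 at 0.55 (adjusted p = 0.000397), followed by Yars2 at 0.48 (adjusted p = 0.000824) and the amidotransferase subunit Qrsl1 at 0.39 (adjusted p = 0.00234), while Wars2 was at -0.12 (adjusted p = 0.127). Of 11 tested genes of mitochondrial DNA expression 5 were called higher (45.5%), with a median of 0.17. These held the RNA polymerase Polrmt at 0.38 (adjusted p = 0.00128), the elongation factor Tefm at 0.51 (adjusted p = 0.00142), the mRNA-stabilising Slirp at 0.49 (adjusted p = 0.00242) and the packaging factor Tfam at 0.26 (adjusted p = 0.0271). The adjusted p of Tfam was 0.0785, 0.0964 and 0.0883 without knockout replicate 1, knockout replicate 3 and control replicate 2, and each of these left 3 higher calls in the list. The polymerase subunit Polg2 was at -0.17 (adjusted p = 0.0888), called lower without control replicate 3 (-0.23, adjusted p = 0.0343). It was also called lower with arrays centred on the median of the tested genes (-0.21, adjusted p = 0.0479) and with the replicate numbers as a block (adjusted p = 0.0496).

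Of 8 tested regulators known for switching on nuclear genes of mitochondria, Myc and Pprc1 were called higher and Ppargc1a and Gabpb1 lower. Those shares of 25% each stand beside 19.1% and 12% of all tested genes. Myc, a transcription factor that raises ribosome production, had 7.95, 8.06 and 8.05 in knockout and 7.26, 7.24 and 7.12 in control, a change of 0.81 ± 0.06 (SE, 1.75-fold, adjusted p = 3.96e-05). Ppargc1a, the coactivator PGC-1alpha, had 2.06, 2.13 and 2.03 in knockout and 2.52, 2.62 and 2.54 in control, close above the brightness limit of 1.92. Its change was -0.49 ± 0.06 (SE, adjusted p = 0.000505). The coactivator Pprc1 was at 0.24 (adjusted p = 0.0495), and 1 regulator was called higher without the filter on dim probe sets, with each array centred on its median or that of the tested genes, with array weights, and on leaving out any 1 array other than knockout replicate 1. Gabpb1, a partner of the ETS factor Gabpa, had 5.07, 4.88 and 4.91 in knockout and 5.39, 5.23 and 5.31 in control, a change of -0.35 ± 0.07 (SE, adjusted p = 0.00678). Nrf1 at 0.03 (adjusted p = 0.795) and Gabpa at -0.07 (adjusted p = 0.374) were not called.

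Other gene families on the same arrays gave the following counts, beside 19.1% higher and 12% lower of all tested genes. Of 34 complex I genes (Nduf), which encode the respiratory complex with the most subunits translated inside mitochondria, 24 were called higher (70.6%) and none lower, with a median of 0.30. Of 40 cytoplasmic ribosomal protein genes (Rpl or Rps) with a probe set of their own, 7 were called higher and none lower, with a median of 0.11. That share of 17.5% was close to the 19.1% of all tested genes, whose median was 0.07. The list was drawn by symbol and also holds like-named paralogues such as Rpl3l and Rps27l. Rps27l had the highest change in it, at 0.38 (adjusted p = 0.00232). The mitochondrial ribosomal genes, at 61.3% and 0.27, lay between them. These shares describe the lists and were not tested against each other.

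**Figure D4:**
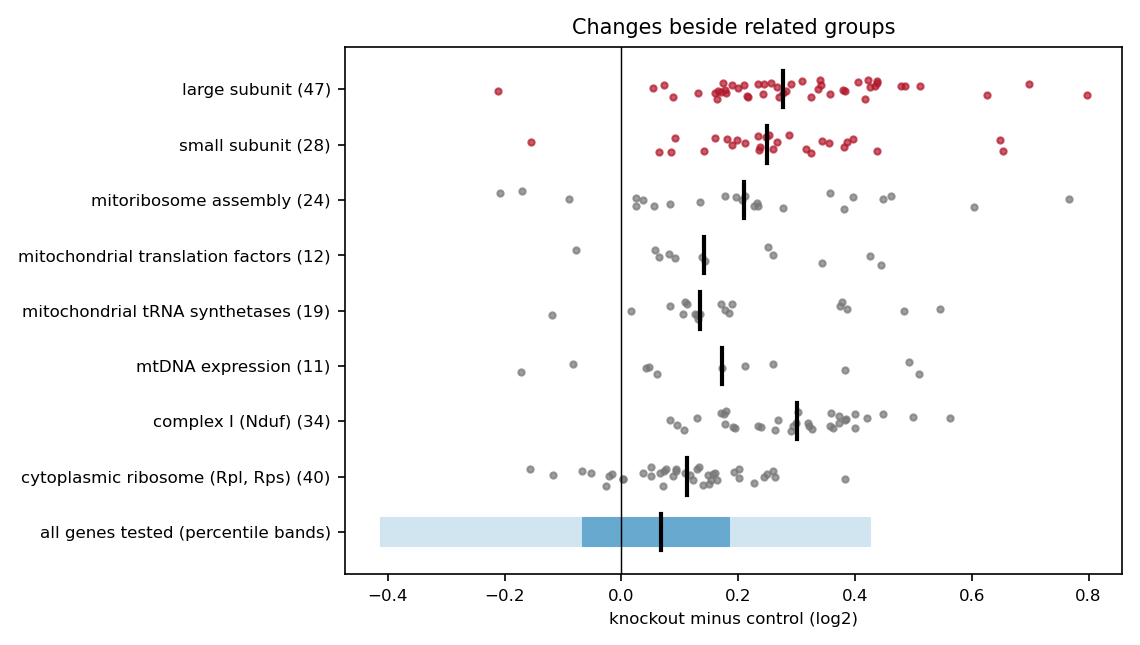
Change of each gene (knockout minus control, log2) in the large and small subunit and in related groups, with the number of genes and a black line at the median. The bottom band shows all tested genes from the 5th to the 95th percentile (light) and from the 25th to the 75th (dark). Medians run from 0.28 for the large subunit and 0.30 for complex I to 0.11 for the cytoplasmic ribosomal protein genes listed by symbol and 0.07 for all genes.

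Promoters were available from RefSeq for 66 of the 75 members, and the 250 bases upstream of each start were searched on both strands for 5 motifs. The motif of NRF1, searched as GCGC and TGCGC with any 1 base between them, was in 9 of 66 (13.6%), where 7.45% of the windows of 10908 tested protein-coding genes and 5.3% of all 17492 protein-coding windows of that length held it. CCGGAAG, a motif of ETS factors such as GABP, was in 16 (24.2%, against 12.5% of tested and 9.13% of all genes). AAGATGGCG, a motif of YY1, was in 2 (3.03%, against 1.01% of tested and 0.697% of all genes). The E-box CACGTG was in 5 (7.58%, below the 8.09% of tested and above the 6.64% of all genes), and CCAAT, the motif of NF-Y, was in 24 (36.4%, against 35.9% of tested and 36.3% of all genes). No motif contains another, and distances are counted from the start in the RefSeq promoter table. The NRF1 motif was in 8 of 41 large subunit windows and in 1 of 25 small subunit windows. Among members called higher it was in 4 of 42 (9.52%) and among those not called in 5 of 24 (20.8%), while CCGGAAG was in 11 of 42 (26.2%) and 5 of 24 (20.8%). In the sequences above, Mrps22 carries CCGGAAG close to its start, at 11 to 5 bases upstream, Mrps27 carries its reverse complement, and Mrpl17, which was not called, both CCGGAAG at 237 to 231 bases and the reverse complement of the NRF1 motif at 49 to 40 bases. The capitals of Mrps30 are reverse complements of CCAAT.

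Many members start back to back with another gene. Of the 66 members, 23 (34.8%) had a gene on the other strand that started within 1000 bases upstream, where 11% of 10908 tested protein-coding genes did. Of these neighbours 20 were tested and are no members: 9 were called higher and none lower (beside 19.1% and 12% of all tested genes), with a median change of 0.21, where the median of their members was 0.26. The member had the larger change in 15 of the 20. Both genes were called higher in 7 pairs. The neighbours named here were chosen after their values were seen. They include the complex I gene Ndufb5 beside Mrpl47, at 0.38 (adjusted p = 0.00186), and the mitochondrial seryl-tRNA synthetase Sars2 beside Mrps12, at 0.37 (adjusted p = 0.00273). Ptcd2 beside Mrps27 was at 0.25 (adjusted p = 0.0275), a call that ended when knockout replicate 1, knockout replicate 3, control replicate 2 or control replicate 3 was left out (adjusted p 0.0864, 0.0902, 0.09 and 0.0702). Cell division genes were among them too, Ncapd2 beside Mrpl51 at 0.39 (adjusted p = 0.00129) and Ska3 beside Mrpl57 at 0.40 (adjusted p = 0.000952). Fau, which shares the bases shown with Mrpl49, was at 0.20 ± 0.08 (SE, adjusted p = 0.0999) and not called, though it was called without knockout replicate 2 (0.27, adjusted p = 0.0468) and without control replicate 1 (0.27, adjusted p = 0.0449).

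A pair of members faces each other. Mrpl46, of the large subunit, and Mrps11, of the small subunit, start 42 bases apart on chromosome 7. The bases between their starts (chr7:78783090-78783130, minus strand, towards Mrpl46) and those between Mrps12 and Sars2 (chr7:28741822-28741956, minus strand, towards Mrps12) are shown as 2 windows shared by genes of mitochondrial translation, and the capitals in Mrps12 mark CCAAT.
Mrpl46: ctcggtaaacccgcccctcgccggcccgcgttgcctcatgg
Mrps12: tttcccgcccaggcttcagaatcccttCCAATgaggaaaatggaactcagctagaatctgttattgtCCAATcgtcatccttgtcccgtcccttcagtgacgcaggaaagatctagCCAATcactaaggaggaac
Mrpl46 had 6.62, 6.48 and 6.65 in knockout and 6.49, 6.11 and 6.32 in control, a change of 0.28 ± 0.10 (SE, adjusted p = 0.0565) that was called without control replicate 1 (0.37, adjusted p = 0.0196). Mrps11 had 4.996, 4.92 and 4.84 in knockout and 4.67, 4.52 and 4.54 in control, a change of 0.34 ± 0.07 (SE, adjusted p = 0.00552). The 2 changes lay within their errors of each other. Mrps12, the counterpart of bacterial S12, had 6.86, 7.02 and 6.88 in knockout and 6.65, 6.74 and 6.59 in control. Its change was 0.26 ± 0.07 (SE, adjusted p = 0.0208), and unlike most members it was highest on replicate 2 in both groups. Its call ended on leaving out knockout replicate 2, control replicate 1 or control replicate 3, with adjusted p of up to 0.0653.

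**Figure D5:**
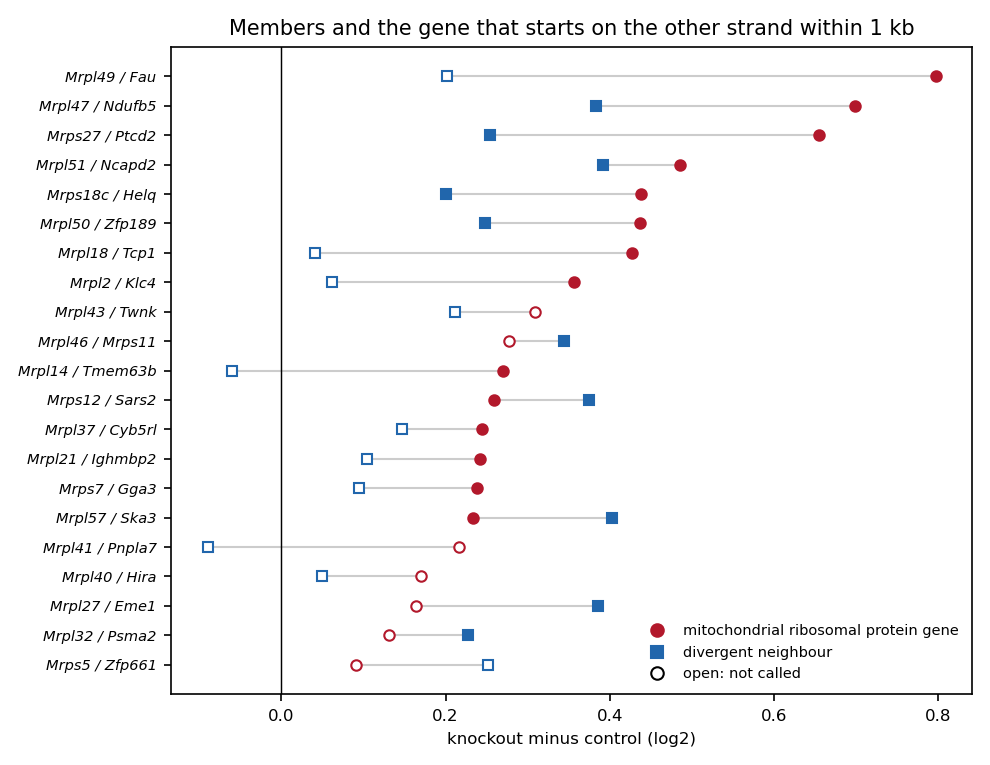
Change (knockout minus control, log2) of members (circles) and of the gene that starts on the other strand within 1 kb (squares) for 21 pairs, filled where the adjusted p was under 0.05. Pairs are sorted by the member's change, from Mrpl49 and Fau (0.80 and 0.20) to Mrps5 and Zfp661 (0.09 and 0.25).

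The members lie on 17 chromosomes, with 11 on chromosome 11, 8 on chromosome 17 and 6 each on chromosomes 6 and 7.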

How the data were processed

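The log2 values were deposited by the authors as a single table with the 6 arrays as columns, made with RMA per the submitters' processing notes. Its version, the build and the log base (taken as 2 because values end near 11.5) are not given in the sources used here. RMA as a method normalizes arrays to each other, and the medians of the deposited arrays ran within 1.90 to 1.95. Precision is limited by the 3 arrays per group. A gene was named from the platform annotation where a probe set had 1 gene, with symbols updated through RefSeq (GRCm38.p6): of 65956 probe sets 31217 had 1 gene, 1533 several and 33206 were not listed. Of several probe sets the brightest was used. Genes with a mean under the median of all probe sets, 1.92, were left out as dim (11658 of 30744).

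Groups came from the sample titles. The comparison used limma's lmFit and eBayes (version 3.58.1, R 4.3.3), two-sided, without a block and over all 6 arrays, with Benjamini-Hochberg adjustment over the 19086 genes kept and a threshold of 0.05. The fit was tested on simulated data. A change given with ± has limma's SE, a mean given with ± the SD. Alternatives were other filters, centrings, a second quantile normalization, probe set rules, array weights, limma priors, the replicate block and leaving out each array. Members, lists and tests were chosen with earlier results of these data known. Named members were the 6 highest and 6 lowest changes of the large and the 5 highest and 5 lowest of the small subunit, and Mrps18a, Mrps18b, Mrps18c, Mrps30, Mrps36, Mrpl12, Mrpl57 and Mrpl58. In each companion list those with the smallest p and the end values were named, and Myc, Nrf1, Gabpa, Tfam, Polrmt and Dap3. Pprc1, mt-Rnr1, Mrps11, Mrpl46, Mrps12 and the divergent neighbours were chosen after their values were seen.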

Additional observations from a re-analysis of the deposited data

Results flagged for a closer look

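The values below come from probe sets annotated to several genes, which the comparison of the 75 genes leaves out, and they carry a difference between the groups. The probe set shared by Ccdc142 and Mrpl53 had 5.22, 5.30 and 5.25 on the knockout arrays, against 5.05, 4.90 and 4.94 on the control arrays, a difference of 0.2951 (SE 0.07, limma adjusted p over all bright probe sets 0.0165). The probe set shared by Mrpl30 and Gm6238 had 4.18, 4.03 and 4.21 in knockout and 3.91, 3.70 and 3.86 in control, a difference of 0.3163 (SE 0.08, adjusted p = 0.0283). In both, the groups did not overlap, and which of the genes gave the signal was not tested.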

How the results depend on the processing

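The precision rests on 3 arrays per group. Of the 46 genes called higher, 25 kept the call under all 16 alternatives. The count, with the share of all genes called higher, was 40 without the filter on dim probe sets (10.8%), 48 with a stricter one (26%), 40 with each array centred on its median (16.3%) or, added after seeing the data, on that of the tested genes (14.5%), 55 after a second quantile normalization (21.9%), 59 with array weights (21.1%) and 58 with the replicate block (23.9%), under which 1 gene, Mrpl17, was called lower. Over all genes the replicate block gave 4571 higher and 2638 lower. The replicate numbers share no stated source. In deviations from the group means, arrays of the same number correlated at 0.219, 0.333 and 0.0999 (numbers 1, 2 and 3). Knockout replicate 3 correlated better with control replicate 1 (0.129). All other pairs of unlike numbers correlated at -0.277 to -0.0328. Whether arrays of the same number share a source was not tested. Leaving out 1 array gave 28 to 47 members called higher, 0 to 1 lower (1 without control replicate 2), 17 to 31 large and 11 to 16 small subunit genes higher, medians of 0.24 to 0.33 (large) and 0.21 to 0.28 (small), and large minus small differences of -0.0092 (without knockout replicate 3) to 0.0475, with -0.0063 without control replicate 3. Small changes turned sign for Mrrf (0.1138 with its probe sets averaged, -0.1571 to 0.0198 leaving out 1 array), Mrps10 (-0.0045 to 0.1328 leaving out 1 array), Ptcd3 (-0.0397 to 0.1041, and -0.0111 centred on the tested genes) and Nrf1 (-0.0303 to 0.0698, and -0.0104 centred on the tested genes). The cause was not tested.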

Other observations

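Pseudogenes of the mitochondrial ribosome have probe sets of their own, tested over all bright probe sets with limma. Mrps36-ps1 was at 7.68 ± 0.21 in knockout and 7.22 ± 0.08 in control (SD, n = 3 each), a difference of 0.46 (adjusted p = 0.0176), and Mrpl23-ps1 differed by 0.35 (adjusted p = 0.0421). Mrps36-ps2 at 0.50 (adjusted p = 0.0527) and Mrpl48-ps at 0.18 (adjusted p = 0.47) were not called. The probe set shared by Slc5a3 and Mrps6 was at 4.09 ± 0.05 in knockout and 4.20 ± 0.05 in control, a difference of -0.11 (adjusted p = 0.229).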
